A study of Macaca mulatta with 12 samples.

Results

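IgG-expressing cells of the memory B cell subtypes CD11c+ MBC 2 and C-MBC 1 were compared in the blood of rhesus macaques. A cell entered the comparison when its B cell receptor (BCR) library held exactly 1 productive heavy chain with an IGHG constant gene and the authors' cell table gave it either subtype name. These conditions held for 1341 cells, 682 of the 1527 cells of CD11c+ MBC 2 and 659 of the 1290 cells of C-MBC 1, out of 2217 IgG cells and 13324 annotated B cells in all. The samples were blood mononuclear cells of 6 juvenile animals of Indian origin, described as healthy and aged 2 to 3 years. The sample labels give every animal as unmanipulated and name no transgene. The deposited cell table also gives a treatment group name for each animal, which the labels do not explain and which was not used here; it marks every cell as day 0. The 2 males formed batch 1 and the 4 females batch 2, so that sex and batch cannot be told apart. Each animal gave 1 droplet-based 5' expression library and 1 BCR library.

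Memory B cells are antigen-experienced cells that persist after an immune response and can respond faster on a second encounter. Class switching replaces the IgM and IgD constant regions of the heavy chain by IgG, IgA or IgE while the antigen-binding V region stays, and somatic hypermutation adds base changes to that region. CD11c, the integrin alpha chain encoded by ITGAX, marks a memory branch also called atypical or age-associated, which in people and mice is known for the transcription factor T-bet and for low CD21. Classical memory cells are known for recirculation through lymphoid follicles, guided by the chemokine receptors CXCR5 and CCR7.

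Both subtypes held IgG cells in every animal. CD11c+ MBC 2 contributed 149, 82, 318 and 30 cells from females 1 to 4 and 68 and 35 from males 1 and 2. C-MBC 1 contributed 190, 91, 200 and 34 cells from females 1 to 4 and 60 and 84 from males 1 and 2. The sums per animal and subtype held 169827 to 2763524 UMIs (unique molecular identifiers, each standing for 1 captured RNA molecule). Female 4 had the fewest cells, and the males had fewer UMIs per cell than the females. Median UMIs per cell were higher in CD11c+ MBC 2 in 6 of 6 animals (4737 to 8929, against 4394 to 7782 in C-MBC 1). The median percent of UMIs from ribosomal protein genes was lower in CD11c+ MBC 2 in 6 of 6 animals, and the mitochondrial percent was higher in 5 of 6. Cell barcodes were not unique to 1 library: 96 occurred in 2 or more, and 16 of the 1341 cells carried such a barcode.

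Before expression, the receptors of clonally related cells show how the subtypes are linked. Clones were first defined as heavy chains of the same animal with the same IGHV and IGHJ genes and identical CDR3 nucleotides, which gave 12 clones of 2 or more IgG cells, 2 of them with cells of both subtypes. A looser definition, equal CDR3 length with 85% or more identical CDR3 nucleotides, allows for mutation within the CDR3 and is the one described here. The CDR3 is the junction of V, D and J segments and is the most variable loop of the antigen-binding site. Of 51 clones with 2 or more IgG cells under it, 25 held cells of both subtypes, 11 held CD11c+ MBC 2 cells alone and 15 held C-MBC 1 cells alone. The heavy CDR3 sequences of 5 such clones, chosen after their values were seen to span the range from no difference to the largest, are given 5′ to 3′ from the conserved cysteine codon to the tryptophan codon. Capitals mark bases unlike the C-MBC 1 cell of the same clone.
male 1, IGHV4-160 with IGHJ3, C-MBC 1 and both CD11c+ MBC 2 cells: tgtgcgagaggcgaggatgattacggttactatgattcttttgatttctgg
female 3, IGHV7-114 with IGHJ4, C-MBC 1 and CD11c+ MBC 2: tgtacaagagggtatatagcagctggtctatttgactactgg
female 3, IGHV3S51 with IGHJ3, C-MBC 1: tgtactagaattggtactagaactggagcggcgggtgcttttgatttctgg
female 3, IGHV3S51 with IGHJ3, CD11c+ MBC 2: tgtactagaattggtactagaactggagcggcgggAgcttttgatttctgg
female 3, IGHV2-95 with IGHJ4, C-MBC 1: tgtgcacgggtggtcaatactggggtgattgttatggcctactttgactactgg
female 3, IGHV2-95 with IGHJ4, CD11c+ MBC 2: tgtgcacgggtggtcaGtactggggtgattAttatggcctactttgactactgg
female 1, IGHV4-73 with IGHJ4, C-MBC 1: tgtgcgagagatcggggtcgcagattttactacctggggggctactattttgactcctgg
female 1, IGHV4-73 with IGHJ4, CD11c+ MBC 2: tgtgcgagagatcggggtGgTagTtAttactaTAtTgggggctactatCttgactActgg

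In the IGHV4-160 and IGHV7-114 clones, CDR3 and V sequence were identical between the C-MBC 1 and CD11c+ MBC 2 cells. The IGHV3S51 clone differed at 1 CDR3 base and 4 V bases between its C-MBC 1 and CD11c+ MBC 2 cells. In the IGHV2-95 clone, 2 CDR3 bases and 7 V bases differed. The IGHV4-73 clone differed at 9 CDR3 bases and 28 V bases, and its C-MBC 1 cell carried IGHG2 where the CD11c+ MBC 2 cell carried IGHG1, the single clone of the 25 with more than 1 IgG subclass.

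The light chains, which the grouping did not use, matched within these clones. Of the 25 clones held by both subtypes, 23 had exactly 1 productive light chain in every cell, and in 23 of the 23 the light V and J genes were the same. Among unrelated IgG cells of the same animal, 0.555% of pairs had the same light V and J genes. The 25 clones used 23 IGHV genes (10 clones with IGHV4 and 8 with IGHV3 genes), had CDR3 of 8 to 20 codons, and each had 2 or 3 cells. They held 26 of the CD11c+ MBC 2 cells (3.81%) and 27 of the C-MBC 1 cells (4.10%). Female 3 held 15, female 1 held 7, male 1 held 2 and female 2 held 1, whereas female 4 and male 2 held none. At 30 to 318 cells per animal and subtype, relatives that were not sampled could not be counted.

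Relatives of the CD11c+ MBC 2 IgG cells outside their own group were counted over all B cell subtypes and classes. At 85% identity, 39 of the cells had such a relative. The relatives included 31 C-MBC 1 cells, 6 CD11c+ MBC 2 cells without an IgG constant gene call, 4 M-MBC 1 cells, 2 CD11c+ MBC 1 cells and 1 of Naive B cells 2. In CD11c+ MBC 2, 38 cells with 1 heavy chain had no constant gene call, so their class is not known. Relatives expressing IgM or IgD numbered 5. The subtypes hold different numbers of cells, so these counts were not compared as rates. With identical CDR3 nucleotides 6 of the cells had such a relative. Clones of 2 or more cells by identical CDR3 held 1.21% ± 1.55 of CD11c+ MBC 2 cells and 1.76% ± 1.61 of C-MBC 1 cells (SD, n = 6; exact two-sided sign-flip permutation test p = 0.375, adjusted p = 0.875). At 85% identity they held 4.49% ± 5.33 and 6.55% ± 4.97 (exact permutation test p = 0.125, adjusted p = 0.875). No heavy chain with the same V, J and CDR3 occurred in more than 1 animal.

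Within the clones held by both subtypes, the sister cells often differed in their V region. Between CD11c+ MBC 2 and C-MBC 1 sisters, 0 to 40 V bases differed (median over clones of the closest pair 22). V divergence, the bases per 100 of FWR1 to FWR3 unlike the nearest V sequence carried by at least 3 unswitched cells of the same animal, could be had for both subtypes in 23 of the clones. The CD11c+ MBC 2 side was more divergent in 13 clones, the C-MBC 1 side in 6, and they were equal in 4. The medians over these clones were 6.03 and 5.26. The largest gap was in an IGHV4-169 clone of female 2, with 7.02 in the CD11c+ MBC 2 cell and 14.0 in the C-MBC 1 cell. Clones are not independent of their animal, and no test was made over them.

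**Figure D1:**
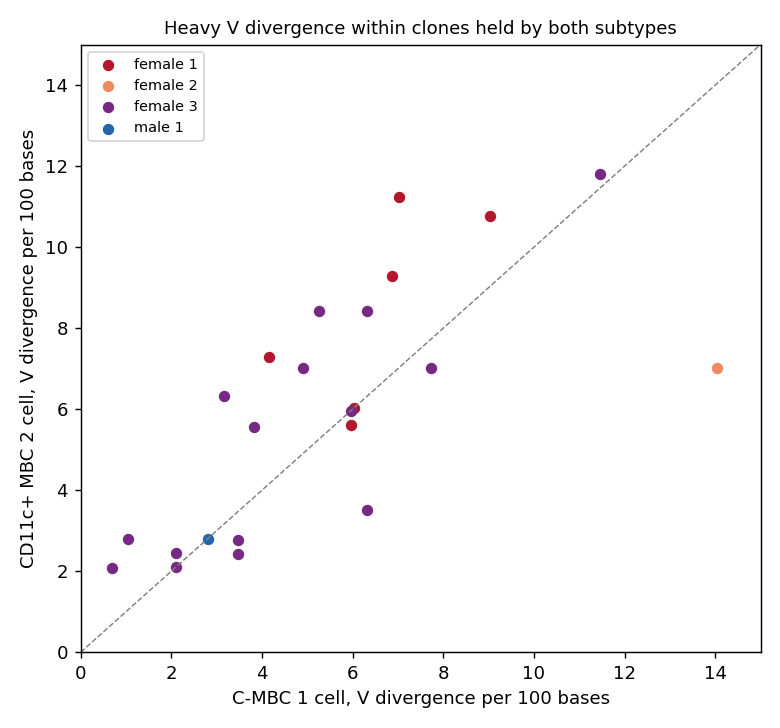
Heavy V divergence (bases per 100 unlike the nearest reference) of the C-MBC 1 side (horizontal axis) and the CD11c+ MBC 2 side (vertical axis) of 23 clones held by both subtypes, each point a clone, coloured by animal, with the line of equality dashed. Of the clones, 13 lie above the line, 6 below and 4 on it.

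Over the IgG cells with a reference, mean V divergence differed between the subtypes by less than the spread between animals. A reference was found for 589 of 682 CD11c+ MBC 2 cells and 557 of 659 C-MBC 1 cells. Per-animal means were 5.47 ± 1.34 in CD11c+ MBC 2 and 5.66 ± 0.876 in C-MBC 1 (SD, n = 5; female 4 was left out because fewer than 10 of its cells per subtype had a reference). Female 2 had the highest means of both subtypes, 7.15 in CD11c+ MBC 2 and 7.21 in C-MBC 1. The lowest mean was that of CD11c+ MBC 2 in male 2, 3.51 against 5.26 in C-MBC 1. The difference, CD11c+ MBC 2 minus C-MBC 1, ranged from -1.75 to 0.72 between animals and was positive in 2 of 5 (exact two-sided sign-flip permutation test p = 0.8125, Benjamini-Hochberg adjusted p = 0.875 over 20 receptor measures). With 5 animals the smallest possible p is 0.0625, so no effect could have passed. Measured the same way, unswitched naive cells (Naive B cells 1) had 0.0440 ± 0.0295 (SD, n = 6), and unswitched cells of CD11c+ MBC 2 and C-MBC 1 had 2.28 ± 0.718 and 2.60 ± 0.443 (SD, n = 5). The references themselves were taken from unswitched cells.

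Divergence in CDR1 and CDR2, the V-encoded contact loops, was higher than that in the framework on both sides. It was 10.4 ± 2.41 in CD11c+ MBC 2 and 11.1 ± 2.06 in C-MBC 1 (SD, n = 5), against 4.64 ± 1.18 and 4.76 ± 0.708 in FWR1 to FWR3. Of differing CDR codons, 79.4% ± 1.66 changed the amino acid in CD11c+ MBC 2 and 79.2% ± 2.19 in C-MBC 1 (SD, n = 5). In the framework the shares were 61.5% ± 1.68 and 62.5% ± 1.15. None of these 4 differences passed the exact sign-flip permutation test (adjusted p = 0.875 for each, n = 5).

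Mean heavy CDR3 length differed between the subtypes by less than the spread between animals. The mean was 16.2 ± 0.488 codons in CD11c+ MBC 2 and 16.2 ± 0.520 in C-MBC 1 (SD, n = 6). Per animal the difference lay between -0.16 and 0.07 codons and was positive in 4 of 6 (exact two-sided sign-flip permutation test p = 0.781, smallest possible p 0.03125). The animals differed more than the subtypes did: male 2 had 15.3 and 15.2 codons in CD11c+ MBC 2 and C-MBC 1, and male 1 had 16.7 in both. Naive B cells 1 had 16.6 ± 0.227 codons (SD, n = 6). Mean net charge of the CDR3 was -0.37 ± 0.22 in CD11c+ MBC 2 and -0.43 ± 0.23 in C-MBC 1, counting lysine and arginine as plus 1 and aspartate and glutamate as minus 1. Mean Kyte-Doolittle hydropathy was -0.37 ± 0.06 and -0.32 ± 0.08, lower in CD11c+ MBC 2 in 5 of 6 animals (exact sign-flip permutation test p = 0.281, adjusted p = 0.875).

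IgG1 was the main subclass on both sides. IGHG1 made up 97.9% ± 1.68 of IgG cells in CD11c+ MBC 2 and 97.0% ± 3.08 in C-MBC 1 (SD, n = 6), and IGHG2 made up 2.04% ± 1.74 and 2.63% ± 3.13. IGHG3 and IGHG4 together were seen in 2 CD11c+ MBC 2 cells and 3 C-MBC 1 cells. Kappa light chains were carried by 48.1% ± 10.3 and 50.2% ± 10.0 of cells with 1 light chain (SD, n = 6), and the direction of the difference was split, 3 animals each way. For none of the 3 shares did the exact sign-flip permutation test pass (adjusted p = 0.875 for each).

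The heavy V and J repertoire overlapped widely. CD11c+ MBC 2 used 86 IGHV genes and C-MBC 1 used 83, of 92 seen. IGHV4 genes were carried by 51.5% ± 9.44 of CD11c+ MBC 2 cells and 50.0% ± 6.41 of C-MBC 1 cells (SD, n = 6), and IGHV3 genes by 29.9% ± 7.00 and 32.4% ± 6.56. Among J genes, IGHJ4 took 57.3% ± 8.16 and 52.6% ± 8.56, and IGHJ6 took 9.19% ± 3.39 and 13.5% ± 6.75. The smallest p of the 20 receptor measures was that of IGHJ5-1, 17.1% ± 5.71 in CD11c+ MBC 2 and 13.6% ± 4.70 in C-MBC 1, higher in 4 of 6 animals (exact sign-flip permutation test p = 0.125, adjusted p = 0.875). None of the 20 passed an adjusted p of 0.05, and with a smallest possible p of 0.03125 at 6 animals no single measure could have passed after adjustment over 20.

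**Figure D2:**
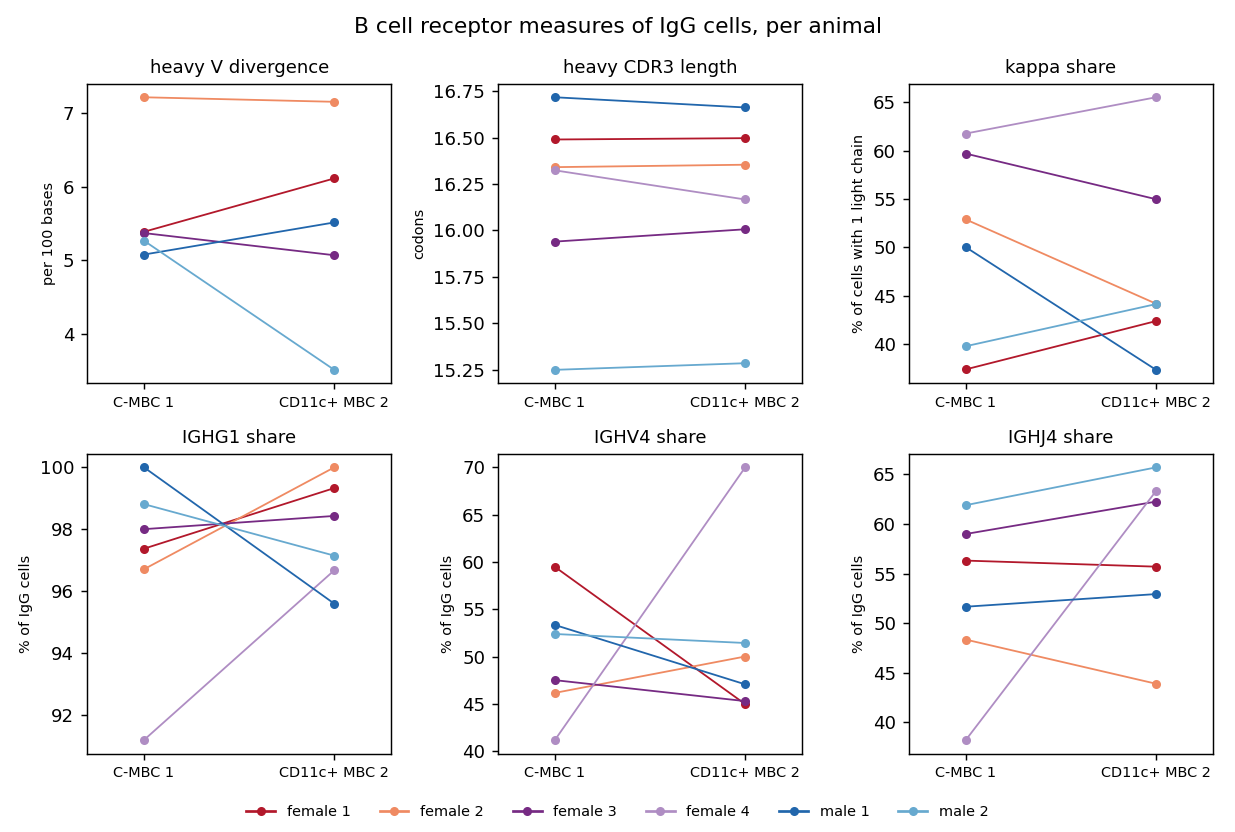
Receptor measures of IgG cells in C-MBC 1 and CD11c+ MBC 2, a line per animal: heavy V divergence (5 animals), heavy CDR3 length, and the shares of kappa, IGHG1, IGHV4 and IGHJ4 (6 animals), with vertical axes that do not start at 0. Lines run both up and down in every panel, and the steepest lines in the IGHV4 and IGHJ4 panels are those of female 4, which had 30 and 34 cells.

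Single IGHV genes were compared by their number of cells in each animal and subtype. Of 24 IGHV genes with 20 or more cells, 0 were called (0%; edgeR quasi-likelihood test, Benjamini-Hochberg adjusted p under 0.05), and 1 had an unadjusted p under 0.05. DESeq2 called 0, with 0 at an unadjusted p under 0.05. IGHV4-173, the gene with the unadjusted p under 0.05, was used by 22 CD11c+ MBC 2 cells and 40 C-MBC 1 cells, a log2 difference of -0.75 ± 0.30 (SE; edgeR adjusted p = 0.759), lower in CD11c+ MBC 2 in 5 of 6 animals. The most used gene, IGHV4-122, had 35 and 31 cells (log2 difference 0.08). IGHV4-65 had 23 and 23, IGHV3-103 had 26 and 19, and IGHV3-54 had 20 and 25 cells. With these numbers the test is coarse, and neighbouring IGHV genes of near-identical sequence may be assigned to one another.

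In expression, the IgG cells of CD11c+ MBC 2 had lower levels of most activation-induced and NF-kB genes tested and higher levels of most integrin and atypical memory genes tested than those of C-MBC 1. The subtype names are those of the authors' clusters of these same cells. The gene calls therefore describe how the 2 named groups differ and are not independent evidence that they do. After a filter on low counts, 5766 named genes were compared with the animal as a block. Of these, 977 (16.9%) were called at an adjusted p under 0.05 (edgeR quasi-likelihood test), 483 (8.38%) higher and 494 (8.57%) lower in CD11c+ MBC 2. Past a log2 difference of 1 in either direction were 177 of the calls, and past 2 were 24. Without the animal block 88 genes were called. Without female 1 the count was 582 of 4699 tested, without female 3 it was 647 of 4803, and in the males alone it was 422 of 4397. Levels are CPM, each gene's UMIs scaled to a common total of the UMIs of named genes with TMM factors, as means over 6 animals ± SD, and differences are on the log2 scale, CD11c+ MBC 2 minus C-MBC 1, ± SE. The median difference of all 5766 genes was 0.01. The lowest CPM in one subtype lay above the highest in the other for 80 genes (1.39%), of which 43 were called higher and 35 lower in CD11c+ MBC 2.

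The defining marker fitted the label, and several companions of it were not called. ITGAX, encoding CD11c, ran from 568 through a median of 951 to 1184 CPM in CD11c+ MBC 2 and from 243 through 280 to 491 CPM in C-MBC 1. The ranges did not overlap, and ITGAX was higher in 6 of 6 animals, by 1.44 ± 0.16. In a fit of the IgG cells of 4 memory subtypes, ITGAX was at 916 ± 281 CPM in CD11c+ MBC 2, 787 ± 249 in CD11c+ MBC 1, 335 ± 102 in C-MBC 1 and 73.9 ± 42.4 in C-MBC 2 (SD, n = 6). TBX21, encoding T-bet, was at 43.0 ± 20.9 CPM in CD11c+ MBC 2 and 26.1 ± 15.2 in C-MBC 1 (edgeR adjusted p = 0.14). It was called without female 3 (1.05, adjusted p = 0.00384). FCRL5, an Fc receptor-like inhibitory receptor, was at 237 ± 30.3 and 269 ± 73.4 CPM, and ZEB2, a transcriptional repressor, at 589 ± 126 and 558 ± 117. Neither was called. In the fit of 4 memory subtypes, ZEB2 was at 596 ± 125 CPM in CD11c+ MBC 2 and 537 ± 87.5 in CD11c+ MBC 1. It was at 567 ± 118 in C-MBC 1 and 129 ± 57.2 in C-MBC 2. FCRL5 was at 240 ± 30.3, 232 ± 25.1, 273 ± 73.2 and 59.9 ± 33.4 CPM in the same order (SD, n = 6). CR2, encoding CD21, had 0 UMIs in CD11c+ MBC 2 and 19 in C-MBC 1, too few for the filter. With no filter on low counts CR2 was called lower (-4.83 ± 1.32, edgeR adjusted p = 0.00453), a value that depends on the prior count. TNFRSF13B, encoding the memory receptor TACI, was at 284 ± 89.6 and 245 ± 99.2 CPM and was not called. CD27 and CD24 were not analysed here.

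**Figure D3:**
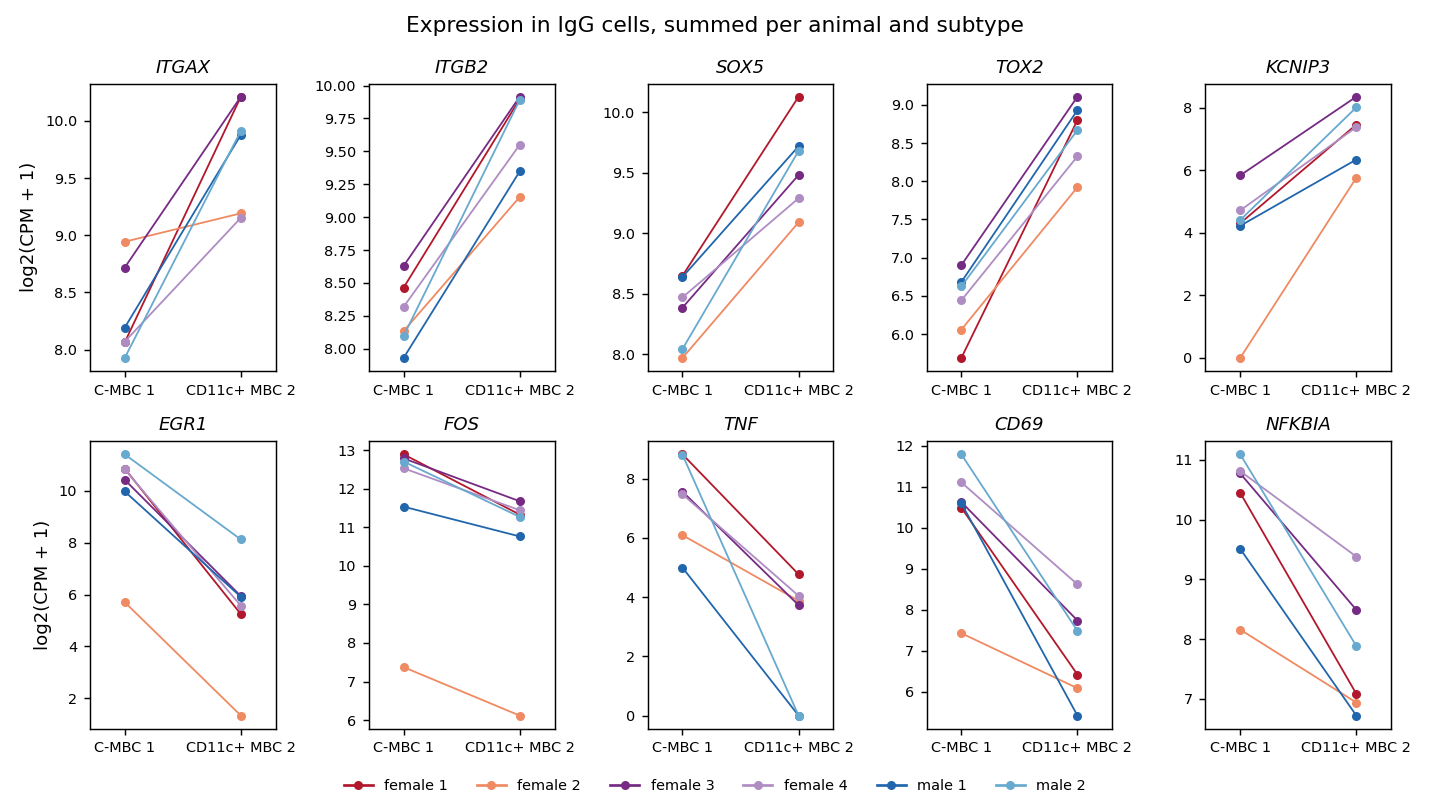
Expression of 10 genes in IgG cells as log2(CPM + 1), summed per animal, in C-MBC 1 and CD11c+ MBC 2, a line per animal, with vertical axes that differ by panel and do not start at 0 in every panel. ITGAX, ITGB2, SOX5, TOX2 and KCNIP3 rise from C-MBC 1 to CD11c+ MBC 2 in 6 of 6 animals and EGR1, FOS, TNF, CD69 and NFKBIA descend in 6 of 6, with EGR1 and FOS of female 2 at the bottom of both groups.

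Genes of the CD11c and atypical memory list were mostly higher in CD11c+ MBC 2. Of 28 genes 23 passed the filter, 13 were called higher and 2 lower, and their median difference was 0.51, beside 0.01 for all genes. The differences of the 23 ran from -1.06 to 1.60. FCRLA, an intracellular Fc receptor-like protein of B cells, ran from 150 through 287 to 592 CPM in CD11c+ MBC 2 and from 33.7 through 101 to 194 CPM in C-MBC 1. It was higher in 6 of 6 animals (1.60 ± 0.14), with overlapping ranges between animals. SOX5, a transcription factor of late B cell stages, was at 777 ± 202 and 333 ± 64.8 CPM (1.22 ± 0.11), and its ranges did not overlap. Among list members that the naming rule did not take and that were picked after their values were seen, the tyrosine kinase FGR was higher (1.11) and the phosphatase DUSP4 lower (-0.53). DESeq2 called 11 of the 23 higher and 0 lower.

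More integrins were called higher than lower in CD11c+ MBC 2. Integrins are paired adhesion receptors that hold leukocytes to vessel walls and matrix, and of 14 on the list 8 passed the filter, 5 called higher and 1 lower (median difference 0.86). ITGB2, the beta chain that pairs with CD11c, ran from 569 through 849 to 965 CPM in CD11c+ MBC 2 and from 243 through 299 to 395 CPM in C-MBC 1. Its ranges did not overlap (1.35 ± 0.10). ITGAL, the alpha chain of LFA-1, was at 60.3 ± 27.4 and 23.8 ± 24.8 CPM (1.85 ± 0.27), higher in 5 of 6 animals. Male 1 had 90.5 CPM in CD11c+ MBC 2 and 70.7 in C-MBC 1, and the other C-MBC 1 sums lay at or below 25.6. ITGAE, the alpha chain of the epithelial adhesion receptor CD103, was at 168 ± 15.0 and 94.8 ± 17.4 CPM without overlap (0.87 ± 0.13). The member called lower was ITGB1 (-0.91), the beta chain of the VLA integrins, named after its value was seen.

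The chemokine receptors CXCR5 and CCR7 were lower in CD11c+ MBC 2. CXCR5, the follicle-homing receptor for CXCL13, ran from 125 through 326 to 535 CPM in CD11c+ MBC 2 and from 438 through 585 to 621 in C-MBC 1, lower in 6 of 6 animals (-0.999 ± 0.15). CCR7, which guides cells to the T cell zone, was lower in 6 of 6 animals (-1.15 ± 0.17), with wide ranges of 14.8 to 313 and 56.3 to 632 CPM that followed the animal. Over the homing and positioning list of 26 genes, 18 passed the filter, 4 were called higher and 6 lower, with a median difference of -0.06; without female 1 the counts were 2 and 6. In the classical memory list, 16 of 23 genes passed the filter, with 4 called higher and 5 lower (median 0.04), and 4 and 3 without female 3. TNFRSF13C, encoding the BAFF receptor that sustains mature B cells, was at 21.6 ± 11.4 CPM in CD11c+ MBC 2 and 63.5 ± 9.95 in C-MBC 1 without overlap (-1.95 ± 0.22). S100A4, a calcium-binding protein of activated and memory lymphocytes, was higher in 6 of 6 animals (0.65 ± 0.09). The classical memory list was thus split between the directions.

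Activation-induced genes were lower in CD11c+ MBC 2 than in C-MBC 1. Immediate early genes are transcribed within minutes of a stimulus such as receptor engagement, and of 22 on the list 16 passed the filter, 0 were called higher and 14 lower (median difference -1.26). EGR1, a zinc-finger transcription factor of this class, ran from 1.52 through 52.8 to 278 CPM in CD11c+ MBC 2 and from 51.2 through 1594 to 2718 CPM in C-MBC 1. It was lower in 6 of 6 animals (-4.59 ± 0.20), and the lowest C-MBC 1 value, that of female 2, lay within the range of CD11c+ MBC 2. FOS, a subunit of AP-1, was at 2155 ± 1138 and 5078 ± 2912 CPM (-1.21 ± 0.08). Female 2 stood apart in both subtypes, with 68.4 CPM of FOS in CD11c+ MBC 2 and 165 in C-MBC 1, where the other sums held 1740 to 3279 and 2973 to 7624 CPM. EGR2 (-2.19 ± 0.16), the retention receptor CD69 (-3.30 ± 0.23), the MAP kinase phosphatase DUSP2 (-2.81 ± 0.21) and the Kruppel-like factor KLF6 (-0.80 ± 0.10) were each lower in 6 of 6 animals. Without female 2, 15 of 16 list members tested were called lower, with a median of -1.40.

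TNF and NF-kB genes showed a like pattern. NF-kB is a family of transcription factors downstream of CD40, BAFF and antigen receptors, and its inhibitors are among its own targets. Of 26 genes on the list 19 passed the filter, 14 were called lower and 1 higher (median difference -1.12). The median was -0.69 without female 2 and -0.66 in the males alone. TNF, the cytokine, ran from 0 through 13.0 to 26.3 CPM in CD11c+ MBC 2 and from 30.9 through 183 to 452 CPM in C-MBC 1. The ranges did not overlap (-3.94 ± 0.21), and both males had 0 UMIs of TNF in CD11c+ MBC 2, so that the fitted value depends on the prior count there. NFKBIA, the inhibitor that holds NF-kB in the cytoplasm, was at 270 ± 216 and 1358 ± 719 CPM (-2.37 ± 0.19), and NFKBID, a nuclear regulator of the same family, was at 19.7 ± 11.6 and 193 ± 59.1 without overlap (-3.52 ± 0.18). CD40, the receptor for T cell help, was at 40.8 ± 27.1 and 119 ± 40.5 CPM (-1.65 ± 0.16), lower in 6 of 6 animals. The member called higher, TNFRSF1B, was named after its value was seen (0.36), and DESeq2 called 0 members higher. In the fit of 4 memory subtypes, TNF was at 11.4 CPM in CD11c+ MBC 2 and 12.5 in CD11c+ MBC 1. It was at 231 in C-MBC 1 and 60.5 in C-MBC 2. NFKBIA was at 274, 359, 1381 and 1738 CPM in the same order.

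Other leading genes lower in CD11c+ MBC 2 were MEGF11, ACP5, TNS3, RPL22L1 and PARVB. ACP5, the tartrate-resistant acid phosphatase, ran from 6.76 through 16.4 to 28.5 CPM in CD11c+ MBC 2 and from 53.9 through 85.5 to 136 in C-MBC 1 (-3.01 ± 0.23). In the IgG cells of 4 memory subtypes ACP5 stood at 206 ± 56.0 CPM in C-MBC 2, 96.1 ± 31.2 in C-MBC 1, 33.6 ± 19.1 in CD11c+ MBC 1 and 17.3 ± 8.86 in CD11c+ MBC 2. TNS3 (-3.00 ± 0.23) and PARVB (-2.30 ± 0.21) encode adaptors at focal adhesions, and RPL22L1 (-2.56 ± 0.19) is a paralog of a ribosomal protein. MEGF11, a transmembrane protein with EGF-like repeats, differed by -3.16 ± 0.23. Of the 12 leading genes lower in CD11c+ MBC 2, 5 had ranges that did not overlap between subtypes, beside 80 (1.39%) of all 5766 genes. The leading genes were picked for large differences in 1 direction in every animal, so this count is no separate result.

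The leading genes higher in CD11c+ MBC 2 were led by KCNIP3, AFAP1L2, CST7 and TOX2. TOX2, a nuclear factor of the HMG-box family, ran from 242 through 426 to 551 CPM in CD11c+ MBC 2 and from 50.6 through 91.8 to 119 CPM in C-MBC 1, without overlap (2.33 ± 0.14). Across 4 memory subtypes of IgG cells TOX2 was at 467 ± 101 CPM in CD11c+ MBC 1, 414 ± 116 in CD11c+ MBC 2, 87.9 ± 25.3 in C-MBC 1 and 2.57 ± 6.30 in C-MBC 2, and the first pair differed by less than its SD. KCNIP3, a calcium-binding protein also known as calsenilin, ran from 53.2 through 170 to 325 CPM and from 0 through 19.5 to 56.1 CPM (2.91 ± 0.19). KCNIP3 had 0 UMIs in C-MBC 1 of female 2. AFAP1L2, an adaptor of Src kinase signalling, was higher in 6 of 6 animals (2.52 ± 0.21). CAMKK2, a calmodulin-dependent kinase, was at 62.3 ± 52.1 and 12.9 ± 6.00 CPM without overlap (2.28 ± 0.23). The neuropeptide gene NMB (2.21 ± 0.18), the sorting receptor SORL1 (1.97 ± 0.19), the phosphoinositide phosphatase INPP5F (1.75 ± 0.16) and SSBP4 (1.72 ± 0.14) did not overlap either. RAP1GAP2 (2.10 ± 0.20), a GTPase activator for Rap1, the ATP-gated channel P2RX5 (1.98 ± 0.21) and the acyl-CoA thioesterase ACOT7 (1.90 ± 0.20) were higher in 6 of 6 animals with overlapping ranges.

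Genes of antigen receptor signalling were called in both directions. On the list of inhibitory receptors and phosphatases more genes were called higher than lower. Of 24 BCR signalling genes 22 passed the filter, 9 called higher and 5 lower (median difference 0.19). CD79A, a signalling chain of the receptor, was at 1859 ± 334 and 1254 ± 260 CPM and higher in 6 of 6 animals (0.57 ± 0.08). The adaptor BLNK (-1.67 ± 0.19) and the calcium-responsive factor NFATC1 (-1.36 ± 0.15) were lower in 6 of 6. NFATC1 ran from 37.2 to 74.5 CPM in CD11c+ MBC 2 and from 97.8 to 243 CPM in C-MBC 1. On the list of 22 inhibitory receptors and phosphatases 11 passed the filter, 5 called higher and 1 lower (median 0.26). Without female 1, 2 were called higher, and without female 2, 3 or 4 or male 1, 3 were. CD22, a sialic acid-binding inhibitor of receptor signalling, was at 181 ± 66.8 and 84.5 ± 16.8 CPM (1.24 ± 0.14). LILRB1 (1.14 ± 0.20) and LAIR1 (1.05 ± 0.17), inhibitory receptors for MHC class I and collagens, were higher in 5 of 6 animals each. The list member called lower, FCRL1, encodes an Fc receptor-like protein and was at 102 ± 41.3 and 332 ± 42.9 CPM without overlap (-1.93 ± 0.14). Whether FCRL1 acts as an inhibitor in these cells was not tested.

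**Figure D4:**
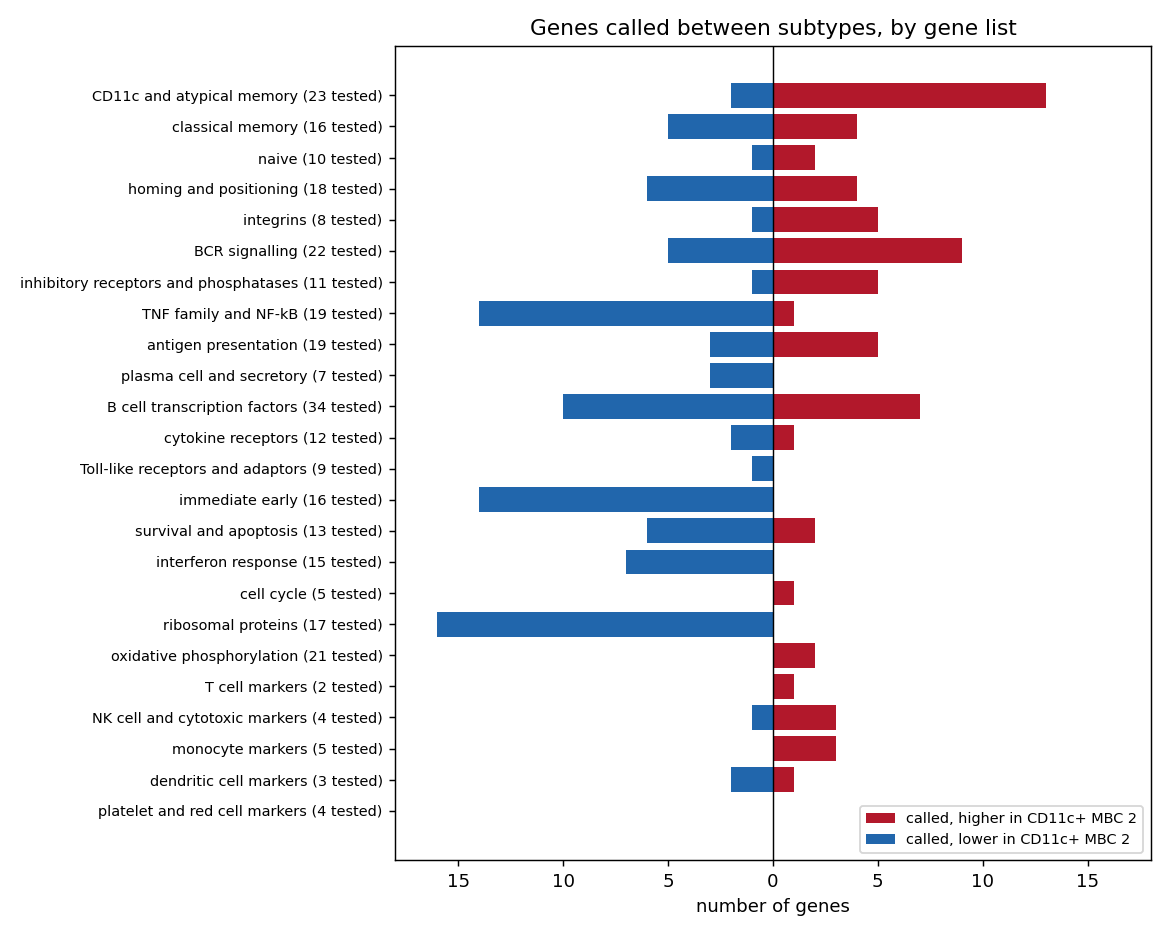
Number of genes called higher (right) or lower (left) in CD11c+ MBC 2 than in C-MBC 1 at an edgeR adjusted p under 0.05, for each of 24 gene lists, with the number tested beside each name. Immediate early, TNF family and NF-kB and ribosomal protein genes lie on the lower side (14, 14 and 16 genes) and CD11c and atypical memory genes mostly on the higher side (13 genes). Over all 5766 genes tested 8.38% were called higher and 8.57% lower.

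B cell transcription factors were divided, with 7 of 34 tested called higher and 10 lower of 37 listed (median difference 0.03). ID3, an inhibitor of E proteins, was at 807 ± 300 and 380 ± 216 CPM and higher in 6 of 6 animals (1.16 ± 0.12). IRF4, which promotes plasma cell fate and class switching, was lower in 6 of 6 (-1.02 ± 0.14). Of 18 plasma cell and secretory genes 7 passed the filter, with 0 called higher and 3 lower (median -0.02), among them ELL2, an elongation factor of secretory transcript processing (-0.99 ± 0.14). JCHAIN, the joining chain of secreted IgM and IgA, fell under the filter with 25 UMIs in CD11c+ MBC 2 and 153 in C-MBC 1 (5.58 ± 1.60 and 39.2 ± 21.3 CPM). MZB1, a chaperone of secretory B cells, had 5 and 175 UMIs. With no filter on low counts both were called lower (JCHAIN -2.67, MZB1 -5.13). PRDM1, the plasma cell master regulator, was at 20.8 ± 13.2 and 22.3 ± 6.96 CPM, and with no filter its difference of 0.19 was not called.

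Of the survival, cytokine receptor, interferon response and innate sensing lists, the survival and interferon lists had medians below 0. Of 18 survival and apoptosis genes 13 passed the filter, 2 called higher and 6 lower (median difference -0.41). The anti-apoptotic BCL2 ran from 93.6 through 154 to 217 CPM in CD11c+ MBC 2 and from 251 through 301 to 364 in C-MBC 1, without overlap (-1.10 ± 0.14), and its relative BCL2A1 was lower in 6 of 6 animals (-1.18 ± 0.10). Of 24 cytokine receptor genes 12 passed the filter, with 1 called higher and 2 lower (median 0.08), beside 8.38% and 8.57% of all genes tested. The lower ones were IFNGR2 (-1.64 ± 0.20) and IFNAR1 (-0.86 ± 0.19), chains of the interferon gamma and type I interferon receptors. Of 24 interferon response genes 15 passed the filter, 0 called higher and 7 lower (median -0.42). The antiviral GTPase MX1 (-1.49 ± 0.17) was lower in 6 of 6 animals and IFIT3 (-1.10 ± 0.23) in 5 of 6. Female 2 had the highest MX1 and IFIT3 in both subtypes, 98.8 and 227 CPM for MX1. Interferon response genes called lower numbered 4 of 13 tested without female 1, 3 of 10 without female 2 and 2 of 11 without female 3. Of 18 Toll-like receptor and adaptor genes 9 passed the filter (median 0.24), and 1 was called, beside 16.9% of all genes tested. It was IRF7 (-1.25 ± 0.27), which induces type I interferon and is also on the dendritic cell list.

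Antigen presentation genes were called in both directions, 5 higher and 3 lower of 19 tested and 29 listed (median difference 0.12). CD83, a stabiliser of MHC class II at the surface, was at 892 ± 426 and 1944 ± 833 CPM (-1.18 ± 0.09). CD1C, which presents lipids, was at 541 ± 298 and 275 ± 164 CPM (0.94 ± 0.11), higher in 6 of 6 animals. Ribosomal protein genes were lower by a small amount, 16 of 17 tested and 22 listed, with a median of -0.30. RPLP1 was at 5578 ± 1199 and 7448 ± 1622 CPM (-0.42 ± 0.06) and RPL32 at 3230 ± 800 and 4406 ± 1329 (-0.43 ± 0.06). With DESeq2 and with RLE scaling 16 were also called lower, without the animal block 0 were. Of 23 oxidative phosphorylation genes 21 passed the filter, and 2 were called higher, UQCRQ (0.39 ± 0.12) and SDHA (0.38 ± 0.12). This share was near the 8.38% called higher over all genes tested. SDHA was not called with DESeq2 (adjusted p = 0.0976), nor without female 1, 3 or 4 or either male. UQCRQ was not called without female 3 (adjusted p = 0.0616) or female 4 (adjusted p = 0.0686), so that 0 of 21 were called without either of these animals in turn. Of 20 cell cycle genes 5 passed the filter, and 1, the kinetochore protein CENPF, was called higher (0.63 ± 0.15), beside 8.38% of all genes tested. In the naive list 10 of 17 genes passed the filter, 2 called higher and 1 lower (median 0.16), beside 8.38% and 8.57% of all genes tested. Among them PLPP5 was higher (0.97 ± 0.16) and KLF2 lower (-0.45 ± 0.08). The naive markers TCL1A and FCER2 had 2 and 2 UMIs in CD11c+ MBC 2 and 11 and 39 in C-MBC 1. With no filter FCER2 was called lower (-4.03).

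Some markers of other blood cells differed. The summed level of 15 T cell markers was 49.9 to 656 CPM in CD11c+ MBC 2 and 56.0 to 232 CPM in C-MBC 1, higher in 4 of 6 animals. Of these markers 2 passed the filter, with CD3G called higher (0.67 ± 0.21) and CD3D not called. CD3G was not called with DESeq2 (adjusted p = 0.128), and neither passed the filter without female 1 or female 3. CD3E, under the filter, had 155 and 30 UMIs and was called higher with no filter (2.03). With no filter 4 of 15 T cell markers were called higher and 0 lower. For 13 listed NK and cytotoxic markers of 15 the sum was 184 to 1048 and 110 to 1379 CPM, higher in 3 of 6, and of 4 tested 3 were called higher and 1 lower. CST7, an inhibitor of granule proteases, was higher in 6 of 6 (2.36 ± 0.21). NKG7 (2.55 ± 0.39) was at 45.8 ± 37.3 and 14.5 ± 27.7 CPM, and KLRD1 had 20 UMIs against 0. With no filter KLRD1 was called higher (4.35 ± 1.51, edgeR adjusted p = 0.0437). In that fit 6 of 13 NK and cytotoxic markers were called higher and 1 lower. GNLY (1.76 ± 0.48) ran from 27.8 to 134 CPM in CD11c+ MBC 2 and from 0 to 4.8 in C-MBC 1 apart from female 4, at 359. GNLY was not called without female 1 (adjusted p = 0.161) or female 3 (adjusted p = 0.0556). The chemokine CCL5 was lower in 6 of 6 (-1.63 ± 0.16). The sum of 14 monocyte markers was 184 to 338 and 132 to 219 CPM, higher in 6 of 6 animals, with LYZ (0.76 ± 0.20) and CD68 (0.66 ± 0.22) among 3 of 5 tested called higher, while CD14 had 2 UMIs against 0 and S100A8 had 1 against 3. LYZ was not called without female 3 (adjusted p = 0.0943). CD68 was not called without female 1, 3 or 4 or male 2, nor with DESeq2 (adjusted p = 0.093). Without female 3 0 of 4 monocyte markers tested were called. The sum of 13 listed dendritic cell markers of 14 was 348 to 1083 and 362 to 783 CPM, higher in 5 of 6 animals, and 5 of these markers were at 0 in every sum. Of 3 tested, CD1C, given above with the antigen presentation genes, was called higher, and IRF7 and TCF4, a transcription factor of plasmacytoid dendritic cells and B cells, were called lower. Of 12 platelet and red cell genes 4 passed the filter and 0 were called. The part of other cells' RNA in the differences was not tested.

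The subtype difference was compared between IgG cells and unswitched cells, which carry IgM or IgD, in the 5 animals with 10 or more cells in each sum (female 4 left out), a comparison added after the data were seen. The same subtypes held 302 and 176 unswitched cells in CD11c+ MBC 2 and C-MBC 1. Of 5628 genes tested for a difference between the classes, 0 were called (0%; edgeR interaction term, Benjamini-Hochberg), and 326 had an unadjusted p under 0.05. EGR1 differed between the subtypes by -4.48 in IgG cells and -4.71 in unswitched cells, CD69 by -3.45 and -2.93, TOX2 by 2.35 and 2.51, and ITGAX by 1.47 and 1.82. TNF differed by -3.98 and -2.24 and TNS3 by -2.94 and -1.39, gaps that did not pass (adjusted p = 0.525 for each, edgeR interaction term). Both classes come from the same libraries, and the subtype names from clustering them together.

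**Figure D5:**
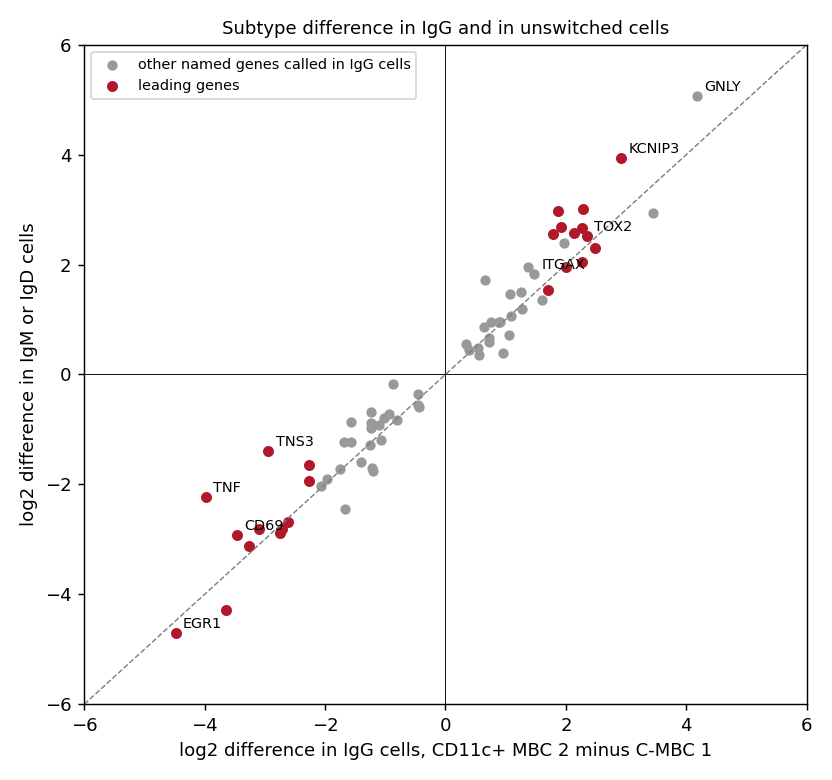
Log2 difference, CD11c+ MBC 2 minus C-MBC 1, in IgG cells (horizontal axis) and in unswitched cells (vertical axis) of 5 animals, for 70 named genes called in IgG cells, with leading genes in red and the line of equality dashed. Leading genes such as EGR1 (-4.48 and -4.71) and TOX2 (2.35 and 2.51) lie near the line, and TNF (-3.98 and -2.24) and TNS3 (-2.94 and -1.39) lie off it.

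The subtype difference was also compared between males and females, which here is a comparison between batches as well. Of 5766 genes 1 was called (0.0173%; edgeR interaction term), PDE4A, encoding a phosphodiesterase that degrades cyclic AMP. PDE4A differed between the subtypes by 1.67 in males and -0.08 in females. Its CPM in CD11c+ MBC 2 were 640 and 278 in males 1 and 2 and 57.0 to 140 in the females, against 203 and 87.6 and 64.1 to 157 in C-MBC 1. Without female 3 no gene was called for this difference.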

How the data were processed

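Raw UMI counts per gene and cell were deposited by the authors as a table of 22584 genes in 13849 cells, with subtype names, and BCR contigs with counts of UMIs per contig. The percent of mitochondrial and ribosomal UMIs per cell is the authors', as deposited. The submitters' processing notes list Cell Ranger 9.0.1, Seurat 5.0.1 and R 4.3.1. Build, annotation and immunoglobulin reference are not given in the sources used here. Every deposited cell carried a singlet call, so no doublet caller was run. Unnamed identifiers (13.7% of UMIs of the compared cells) and 23 immunoglobulin genes (0.08%) were left out. Counts were summed per animal and subtype (10 or more cells, library sizes after the filter 139350 to 2341776) and tested with edgeR 4.0.16 (filterByExpr, TMM, quasi-likelihood, animal as block) in R 4.3.3, and as an alternative with DESeq2 1.42.0. The pairing comes from the animals: deviations of the 2 sums of an animal from the subtype means correlated at 0.27 to 0.72. The test was checked on simulated counts that held no difference between animals, so the check does not cover the animal block. Receptor measures were compared by exact two-sided sign-flip permutation over animals, with all sign patterns enumerated, adjusted over 20 measures. The alternative without pairing used the permutation test of scipy 1.17.1. The cell groups and gene lists were chosen with earlier results of these data known. Named genes are the 12 with the largest log2 difference per direction among those called, at an average log2 CPM of at least 5 and in 1 direction in every animal, 2 or 4 members with the smallest p of each list, and fixed markers; 1 of them is not reported here. Alternatives changed the scaling, filter, block, cells, references and animals.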

Additional observations from a re-analysis of the deposited data

Results flagged for a closer look

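The difference between subtypes in a single animal stood far from that of the others in 7 measures, by a gap rule that chance meets in about 1 of 20 groups. The TNF difference was -7.35 in male 2, where the other animals lay between -3.97 and -2.09. Male 2 had 0 UMIs of TNF in CD11c+ MBC 2, so its value depends on the prior count. The DUSP2 difference was -0.79 in female 2, with the others between -3.70 and -2.83. PARVB differed by -0.42 in male 2 and by -2.88 to -2.06 elsewhere. TOX2 differed by 3.07 in female 1 and by 1.84 to 2.23 elsewhere. In female 4, the share of IGHJ4 was 25.1 percentage points higher in CD11c+ MBC 2 and that of IGHJ6 lower (-23.1), from 30 and 34 cells. In male 1, the percent of differing framework codons that change the amino acid was lower in CD11c+ MBC 2 by -4.68 percentage points. PDE4A was marked by the test of the sex and batch difference itself, females minus males -1.72 ± 0.25 (SE, edgeR interaction term adjusted p = 0.00627).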

How the results depend on the processing

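Of 5766 genes tested 977 were called. With all cells of both subtypes the count was 1795 of 7810, with the males alone 422 of 4397, and without the replicate block 88 of 5766. Leaving out 1 animal gave 582 to 952 calls, with 4687 to 6515 genes tested. The numbers tested differ, so these counts are not like for like. Of the 88 calls made without the pairing by animal, 88 were among the 977. DESeq2 called 675. In the males alone, 32 of the 977 had the opposite direction and 125 were not tested. For the sex and batch difference, leaving out 1 female gave 0 to 4 genes. IGHV genes stayed at 0 called under every alternative run. Of 81 named genes, the direction turned for CD180 (-0.22), IL4R (-0.20) and ZEB2 (-0.00950) in the males alone and for IL4R with all cells (-0.0259), none of them called, and leaving out 1 animal gave -0.0491 to 0.180 for IL4R. No receptor measure passed its test under any alternative, and small differences changed sign. V divergence turned to 0.0409 with the nearest reference of any IGHV gene, 0.13 with references in 2 or more cells and 0.12 in the females alone, and framework divergence to 0.14 and 0.15 in the first and last of these. With 3 or more UMIs per contig CDR3 length turned to 0.12 codons and the framework codon share to 0.99. In the males alone net charge was -0.0533, IGHV1 1.12, IGHV4 -3.61, IGHG1 -3.04, IGHG2 3.04 and the share in clones 0.64, and in the females alone IGHJ5-2 was 1.12. Leaving out 1 animal gave -0.42 to 0.20 for V divergence, -1.16 to 0.15 for CDR divergence, -0.29 to 0.20 for framework divergence, -0.70 to 1.22 and -1.22 to 0.00404 for the codon shares, -0.0312 to 0.0135 for CDR3 length, -2.06 to 0.90 for IGHJ5-2, -1.32 to 0.63 for IGHV1, -5.10 to 2.51 for IGHV3, -4.02 to 4.64 for IGHV4, -0.0787 to 1.90 for IGHG1 and -1.60 to 0.38 for IGHG2. Clones held by both subtypes numbered 2 by identical CDR3 and 25 at 85% identity. The minimum of 20 cells removed no animal. The cause of these changes was not tested.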

Other observations

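Among cells with a reference, 36 of 589 CD11c+ MBC 2 IgG cells and 6 of 557 C-MBC 1 IgG cells had no base difference in the V region, a comparison chosen after the values were seen. Per animal the shares were 6.99% ± 6.71 and 1.09% ± 1.07 (SD, n = 5). The share was higher in CD11c+ MBC 2 in 4 of 5 animals and 0 in both subtypes of female 2 (exact two-sided sign-flip permutation test p = 0.125, the smallest possible with 1 of 5 differences at 0). Male 2 had the highest share in CD11c+ MBC 2, 17.6% of 34 cells, against 1.23% of 81 in C-MBC 1. These 36 cells used 23 IGHV genes, 21 cells carried IGHV4 and 36 carried IGHG1, and their mean CDR3 length was 15.9 codons. With references in 5 or more unswitched cells the counts were 34 of 527 and 6 of 508, and with 3 or more UMIs per contig 34 of 521 and 6 of 494.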
